A study of Drosophila mojavensis with 14 samples.

Results

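Dscam, named for the Down syndrome cell adhesion molecule, was 1 of 14519 transcripts measured on expression arrays of the lower reproductive tract of Drosophila mojavensis females, and it was taken from the files by its name. It had been picked for its lower level at 6 h than at 15 min after conspecific mating, so every value from those 2 groups is a description with no test, and tests are given for the groups that the choice did not use. The study asked how transcripts change after mating and whether the species of the male matters. The females came from 1 isofemale line and formed a virgin group and 6 mated groups. Their mates were D. mojavensis males (conspecific) or males from 1 isofemale line of Drosophila arizonae (heterospecific), and the tracts of mated females were removed at 15 min, at 2 h or at 6 h. All flies were collected as virgins and aged for 10 to 12 days, and each mated female had been placed with 2 males. Each of the 7 groups had 2 arrays, which the labels call biological replicates, and each sample pooled 20 to 25 tracts.

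In Drosophila melanogaster, Dscam codes for a cell surface receptor of the immunoglobulin superfamily. Alternative splicing of mutually exclusive exons gives a very large set of receptor forms, and like forms bind each other between cells. The receptor is known for axon guidance, where it signals through the adaptor Dock and the kinase Pak, and for the self-avoidance of neuronal branches. Forms of it are also made by hemocytes and the fat body, where it has been linked to the uptake of bacteria. These roles are background from that species. The array does not tell the cell types of the tract apart, and fewer cells of a type and less RNA per cell cannot be told apart in pooled tissue.

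Levels are log2 probe intensities after background correction and quantile normalization, summarised over the 4 Dscam probes by median polish. Dscam lay above the background limit (for each array, its most common transcript level raised by 2 SDs of the levels under it) on 14 of 14 arrays. The margin over that limit was smallest on conspecific 6 h replicate 1, at 0.08, and largest on heterospecific 15 min replicate 1, at 1.81. The tissue label could not be checked with markers: of 62 entries in 10 lists of pathway genes and cell type markers (3 Dscam paralogs, 14 cell surface receptors and ligands, 13 intracellular partners, 5 splicing factors, and markers of neurons, hemocytes, muscle, fat body, epithelium and secretory cells), 0 matched a transcript name on the array, because nearly all transcripts carry GI numbers that no table used here pairs with genes.

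After conspecific mating the Dscam level was lower at each later time. The 15 min arrays read 9.19 and 9.16, those of 2 h read 8.50 and 8.42, and those of 6 h read 7.81 and 8.03. Virgin tracts gave 8.84 and 8.12. Both 15 min arrays lay above both virgin arrays (as for 14.1% of all transcripts), the 2 h arrays lay between the virgin values, and both 6 h arrays lay below them (as for 14.3%). The group means were 9.17 ± 0.02 at 15 min, 8.46 ± 0.06 at 2 h, 7.92 ± 0.16 at 6 h and 8.48 ± 0.51 in virgins (SD, n = 2 each). From 15 min to 6 h the log2 difference was -1.25, a 2.39-fold lower level, made up of -0.72 from 15 min to 2 h and -0.54 from 2 h to 6 h. The 3 conspecific times did not overlap, and such a downward order without overlap was found for 2.7% of all transcripts. A lower 2 h than 15 min pair was found for 16% and a lower 6 h than 2 h pair for 14.4%. Both arrays at 6 h lay below both at 15 min for 19.6% of all transcripts, and 0.778% of transcripts had a more negative difference than Dscam. Over all transcripts limma called 14 lower at 6 h than at 15 min (0.0964%). Nothing is read from these shares, because these arrays chose the gene.

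After heterospecific mating the Dscam means lay in a narrower band, with wider replicates, than after conspecific mating. The conspecific fall chose the gene, so a wider span was expected there. The 15 min arrays read 9.26 and 8.69, those of 2 h read 9.04 and 8.77, and those of 6 h read 9.17 and 8.48. The ranges of the 3 times overlapped, and each group held 1 array near or above 9 and 1 lower array. The means were 8.98 ± 0.40, 8.90 ± 0.19 and 8.82 ± 0.49 (SD, n = 2 each). From 15 min to 6 h the difference was -0.15 (SE 0.29, 95% interval -0.80 to 0.49, limma adjusted p = 0.913). Leaving out 1 array at a time gave -0.50 to 0.19, and without heterospecific 15 min replicate 1 or 6 h replicate 2 the direction turned (0.13 and 0.19). With the day on which images were read as a block the difference was -0.35. On the first of the 2 days alone, with 1 array at 15 min, it was -0.44. That is the same value as without heterospecific 15 min replicate 2, so it adds nothing to the range above. The conspecific change minus the heterospecific change was -1.10, which was not tested because the gene was chosen on the first of them. From 15 min to 2 h the heterospecific difference was -0.07 (95% interval -0.72 to 0.57, limma adjusted p = 0.970), and from 2 h to 6 h it was -0.08 (95% interval -0.72 to 0.56, limma adjusted p = 1.000). In these 3 comparisons limma called 0.0276%, 0.0207% and 0% of all transcripts at an adjusted p under 0.05. In the last of them 251 transcripts (1.73%) had an unadjusted limma p under 0.05, a smaller share than that threshold gives where nothing changes.

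**Figure D1:**
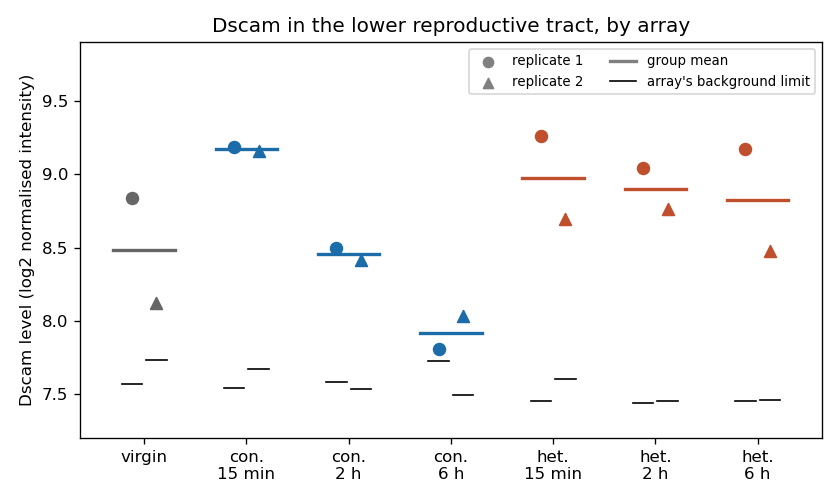
Dscam level (log2 normalised intensity, vertical axis) on each of the 14 arrays by group, with circles for replicate 1, triangles for replicate 2, thick bars for group means and thin bars for each array's background limit. Conspecific arrays (con.) go from 9.19 and 9.16 at 15 min to 7.81 and 8.03 at 6 h, while the heterospecific arrays (het.) lie between 8.48 and 9.26 at all 3 times.

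Ordered by mean, Dscam was highest at conspecific 15 min, followed by heterospecific 15 min, 2 h and 6 h, virgin, conspecific 2 h and conspecific 6 h. Of the 6 pairs of neighbours in that order, the first 5 overlapped and the last, conspecific 2 h over conspecific 6 h, did not. The 5 overlapping steps were between 0.02 and 0.34 on the log2 scale, and the spread between replicates, pooled over groups, was 0.32 (SD). The whole span of the group means was 1.25, and 924 of 14519 transcripts had a wider one. Both ends of this order are the groups that chose the gene, so the span is the difference it was picked for. The gap of the last pair also rests on conspecific 6 h. Nothing is read from that rank or that gap.

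Against virgins, the heterospecific groups had higher Dscam means, but none of these differences passed the test. The log2 difference was 0.50 at 15 min (SE 0.29, 95% interval -0.15 to 1.14, limma adjusted p = 0.998). It was 0.42 at 2 h (95% interval -0.22 to 1.06, limma adjusted p = 0.463) and 0.34 at 6 h (95% interval -0.30 to 0.98, limma adjusted p = 0.534). In each of these comparisons the mated arrays overlapped the virgin arrays. All 3 share the same virgin arrays, and the virgin level rests on 2 arrays that differ by 0.72. Without virgin replicate 1 the 3 differences were 0.85, 0.78 and 0.70, and without virgin replicate 2 they were 0.14, 0.06 and -0.02, with limma adjusted p-values between 0.151 and 0.999 over all alternatives for 2 h and between 0.320 and 1.000 for 15 min. With the image day as a block the 3 differences were 0.30, 0.03 and -0.05. Both virgin arrays were read on the second day and all heterospecific 2 h and 6 h arrays on the first. At these times mating and day cannot be told apart. The blocked values rest on heterospecific 15 min and conspecific 6 h, the only groups with arrays of both days. Limma called 0.062%, 0.0689% and 0.165% of all transcripts at the 3 times, and the counts of 10 at 2 h and 24 at 6 h were 326 and 389 without virgin replicate 1 and 1 and 7 without virgin replicate 2. At 2 h after conspecific mating the difference from virgins was -0.02 (95% interval -0.67 to 0.62, limma adjusted p = 0.999), in a comparison that called 0.0344% of transcripts. It was 0.33 without virgin replicate 1, -0.38 without virgin replicate 2 and -0.42 without the 4 arrays of lowest brightness. The last of these values compares 1 array with 1 array.

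At 2 h both heterospecific arrays (9.04 and 8.77) lay above both conspecific arrays (8.50 and 8.42). The log2 difference was 0.45, or 1.36-fold (SE 0.29, 95% interval -0.19 to 1.09, limma adjusted p = 0.667), so it did not pass the test. A separation of that kind and direction was found for 24.9% of all transcripts, and limma called 0.0207%. Images of the heterospecific 2 h arrays were read on the first of 2 days and those of the conspecific 2 h arrays on the other, and with that day as a block the difference was 0.05 (SE 0.39, limma adjusted p = 0.994). No value within a day could be had here. At the times that chose the gene, the heterospecific minus conspecific difference was -0.20 at 15 min, with overlapping arrays, and 0.90 at 6 h, where heterospecific arrays at 9.17 and 8.48 lay above conspecific arrays at 7.81 and 8.03 (as for 24.8% of all transcripts). Both of these are values without a test.

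**Figure D2:**
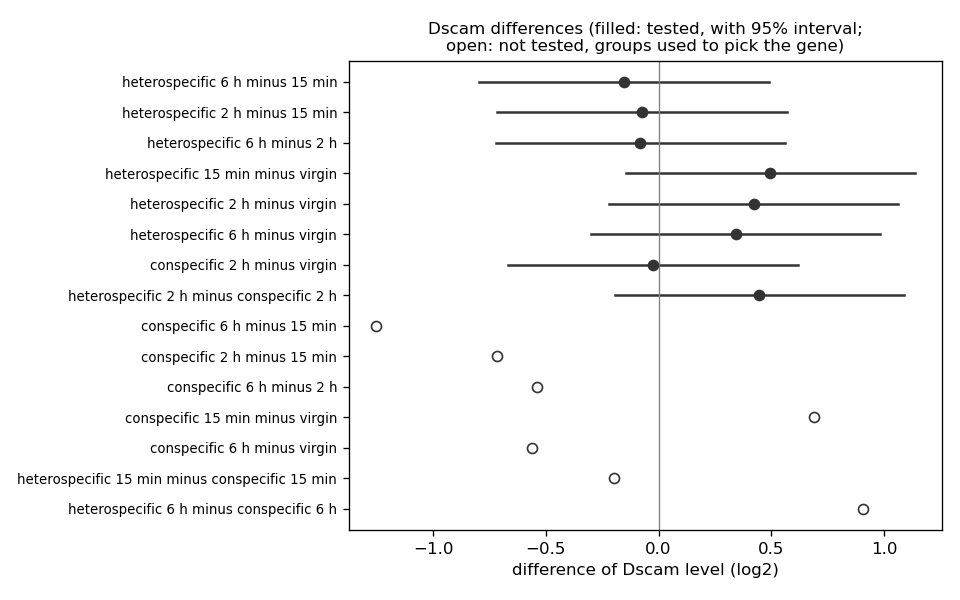
Log2 differences of the Dscam level between groups (horizontal axis), with filled points and 95% intervals for the 8 tested comparisons and open points for the 7 comparisons that use conspecific 15 min or 6 h arrays. All 8 intervals include 0, and the open points run from -1.25 to 0.90.

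The 4 probes behind the summary level differed among themselves. They lie at positions 5753, 6170, 6400 and 6612 along the transcript as the files give them, within 859 positions of each other, and are numbered 1 to 4 here in that order. From 15 min to 6 h after conspecific mating, probe 2 differed by -1.72, probe 3 by -1.28 and probe 4 by -1.78, with no overlap between the arrays of the 2 times. Probe 1 differed by -0.15, with overlapping arrays. Its raw intensity lay between 157 and 322 on the 14 arrays, and its normalised level lay at or under the array's background limit for transcripts on 9 of 14, among them the 4 arrays of conspecific 15 min and 6 h, so its small differences are not read as a level that stayed the same. Probe 2 lay at or under that limit on conspecific 6 h replicate 1 and virgin replicate 2, and probe 4 on conspecific 6 h replicate 1, so their differences at conspecific 6 h are partly set by background. Probe 3 was above it on all 14 arrays. Across arrays, the levels of probes 3 and 4 had a Pearson's r of 0.87, those of probes 2 and 3 one of 0.78, and those of probes 1 and 4 one of 0.16, over 14 arrays on which all probes share brightness and RNA quality. At 2 h after conspecific mating probes 2, 3 and 4 were already lower, with differences from 15 min of -0.74, -0.82 and -0.71, and probe 1, mostly under the limit, differed by 0.12.

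From 15 min to 6 h after heterospecific mating the differences were -0.16 for probe 2, -0.24 for probe 3 and -0.33 for probe 4, each with overlapping arrays. Probe 1 went the other way, by 0.39, with overlapping arrays, and it lay under the background limit on heterospecific 15 min replicate 2. At 2 h, heterospecific arrays were higher than conspecific arrays by 0.55 for probe 2 and 0.49 for probe 3, without overlap, while probe 4 differed by -0.11 with overlap. Probe 1 was under the limit on both conspecific 2 h arrays. At 15 min probe 4 was lower after heterospecific than after conspecific mating by a log2 difference of -0.69, without overlap, while probe 2 differed by 0.003. Virgin arrays differed most at probe 2, with 9.46 on replicate 1 and 7.22, under the limit, on replicate 2. Whether these probes lie in exons that all Dscam forms share was not analysed here, as the files give no probe sequence.

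**Figure D3:**
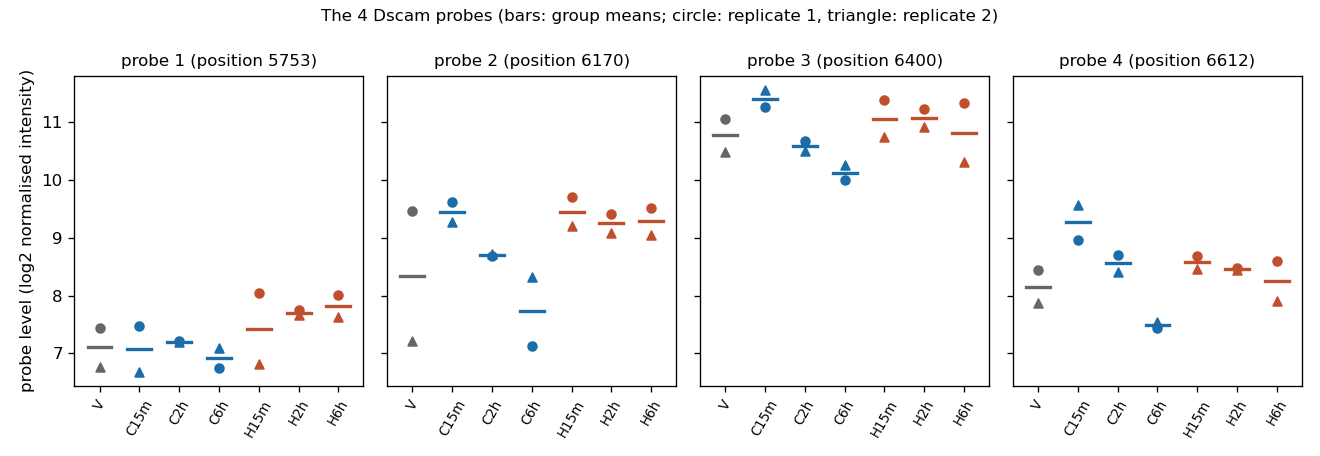
Level of each of the 4 Dscam probes (log2 normalised intensity, vertical axis) by group (V, virgin; C, conspecific; H, heterospecific; 15m, 2h and 6h after copulation), with circles for replicate 1, triangles for replicate 2 and bars for group means. Probes 2, 3 and 4 differ between conspecific 6 h and 15 min by -1.72, -1.28 and -1.78, and probe 1 by -0.15.

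The arrays differed in brightness, and raw Dscam values varied with brightness. The raw upper quartile of probe intensity ran from 943 to 2912, and the 4 arrays of lowest upper quartile, here called dim, included 1 array of each conspecific group and virgin replicate 2. The raw intensity of probe 3 was 3516 and 1519 at conspecific 15 min, then 1194 and 1784 at 2 h, then 734 and 1523 at 6 h. Unlike the normalised levels, these raw values overlapped between 15 min and 6 h, and each of these groups held a dim and a brighter array. Between the brighter arrays of the 2 groups (upper quartiles of 2775 and 2404) probe 3 went from 3516 to 1523, and the normalised Dscam level differed by -1.15. Between the dim arrays (943 and 1183) it went from 1519 to 734, and the normalised level differed by -1.35. The arrays of these 2 groups chose the gene, so the sign of both values was set by that choice. On the arrays read on the second day alone, with 1 array at conspecific 6 h, the conspecific difference was -1.37. That is the same value as without conspecific 6 h replicate 2.

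The slope of probe intensity along transcripts, a sign of RNA or amplification quality, moved with Dscam in the conspecific groups. Its mean was 0.876 at conspecific 15 min, 0.746 at 2 h and 0.512 at 6 h, and 0.718, 0.588 and 0.544 at the same times after heterospecific mating. Over the 14 arrays the Dscam level and the slope had a Pearson's r of 0.44 and a Spearman's rho of 0.53, given as a description. The 2 conspecific 2 h arrays had slopes of 0.991 and 0.501 with Dscam levels of 8.50 and 8.42, and the virgin arrays had slopes of 0.697 and 0.697 with levels of 8.84 and 8.12. With the slope as a covariate the conspecific difference from 15 min to 6 h was -1.04 and the heterospecific one -0.05.

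**Figure D4:**
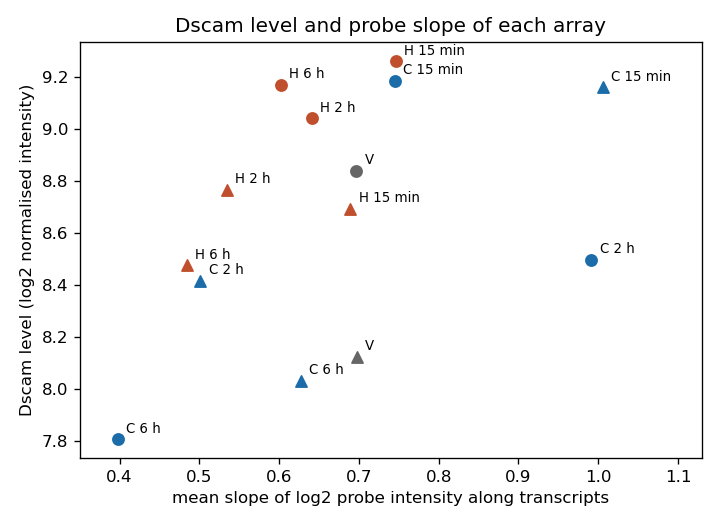
Dscam level (log2 normalised intensity) against the mean slope of log2 probe intensity along transcripts on each of the 14 arrays (V, virgin; C, conspecific; H, heterospecific; circle, replicate 1; triangle, replicate 2). The lowest level, 7.81, lies at the lowest slope, 0.398, and arrays with slopes near 0.7 span 8.12 to 9.26.

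Transcripts with a pattern like that of Dscam were ranked by Pearson's r over the 14 arrays, among 1939 transcripts that were above background in at least 1 group and whose group means spanned at least 1 on the log2 scale. Both the span and r used the conspecific 15 min and 6 h groups, which chose Dscam. A like or opposite pattern at these times was thus partly set by the selection. Their median r was 0.03, and 33 of the 1939 had an r of at least 0.8. GI22989 was most alike, with r of 0.93 over 14 arrays, Spearman's rho of 0.88 and r of 0.94 over the 7 group means, and GI19364 followed, with r of 0.90, rho of 0.92 and r of 0.96 over group means. GI22989 had means of 10.11, 9.36 and 8.89 at conspecific 15 min, 2 h and 6 h and of 9.77, 9.76 and 9.41 at the same heterospecific times. Over the 10 arrays outside conspecific 15 min and 6 h, r with Dscam was 0.88 for GI22989 and 0.86 for GI19364. These 10 arrays were part of the ranking, so r on them is no separate check, here or below.

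Of 9 such transcripts with a gene symbol, Marf, the mitofusin that acts in the fusion of mitochondria, was most alike, with r of 0.80 (rho 0.82). Its means were 10.33, 9.91 and 9.17 at the 3 conspecific times and 10.23, 10.04 and 9.77 at the heterospecific times. Xdh, the gene of xanthine dehydrogenase, had r of 0.64, and Tes134 had r of 0.53. Over the 10 arrays outside conspecific 15 min and 6 h, r was 0.53 for Marf, 0.08 for Xdh and 0.11 for Tes134, against 0.80, 0.64 and 0.53 over all 14. The most opposite patterns were those of GI12412 (r = -0.89) and GI19767 (r = -0.83), with r of -0.79 and -0.68 over those 10 arrays. GI12412 had means of 11.81 at conspecific 15 min, 12.57 at 2 h and 13.15 at 6 h. All arrays share their brightness and quality across transcripts, so these values describe likeness on these arrays only.

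**Figure D5:**
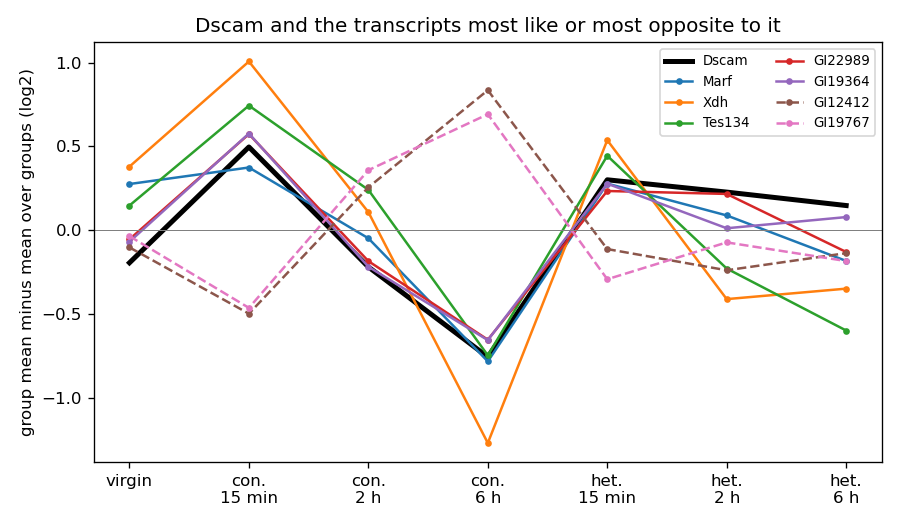
Group means minus their mean over the 7 groups (log2, vertical axis) of Dscam (thick line), the 2 GI-numbered and 3 symbol-named transcripts most like it (solid lines) and the 2 most opposite (dashed lines). Dscam, GI22989 and GI19364 are lowest at conspecific 6 h, where GI12412 and GI19767 are highest. That group entered the selection of all these transcripts.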

How the data were processed

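The arrays were 1-colour NimbleGen arrays with Cy3 label, and the labels' protocols give an amplification of the mRNA ahead of labelling. Per the file headers, NimbleScan 2.4.67 gave the deposited values, 1 raw perfect-match intensity for each of 71998 probes. The submitters' processing notes name RMA, but 0 probes of the deposited value table differed from the raw intensity. Background was corrected by normexp in limma (offset 50), and values were quantile normalized, put on the log2 scale and summarised by median polish (R 4.3.3, limma 3.58.1). The offset understates changes of dim transcripts. Limma fitted 1 mean per group over all 14 arrays (7 residual and 3.56 prior degrees of freedom), with 2-sided tests, Benjamini-Hochberg adjustment over 14519 transcripts and a threshold of 0.05. The fit was tested on simulated data. The number of arrays limits the precision. Transcripts of like pattern were named by rank of r (up to 3 with symbols, 2 GI numbers most alike, 2 most opposite). The gene, lists and tests were chosen with earlier results of these data known. Alternatives changed the background correction, normalization, probe summary, eBayes settings, arrays, probes and covariates. The 2 image days are not days of RNA extraction.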

Additional observations from a re-analysis of the deposited data

How the results depend on the processing

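Each of the 9 differences was recomputed under 33 or 34 other settings, of which the fits of 1 image day alone were chosen after seeing the data. None of the 8 tested differences passed the threshold under any of them. The conspecific difference from 15 min to 6 h kept throughout the sign set by gene selection, between -1.37 and -1.14 without any 1 array. It was -1.42 with a normexp offset of 0, -1.12 with no background correction or with cyclic loess, -1.45 with the image day as a block, -1.04 with the probe slope as a covariate, and -1.52 or -1.04 without probe 1 or probe 4. Directions turned for 5 of the tested differences, whose values in the reported fit ran from -0.15 to 0.34. With median scaling the heterospecific difference was 0.035 from 15 min to 6 h and 0.036 from 15 min to 2 h, and conspecific 2 h against virgin was 0.12, where the median of all transcripts was 0.16. The last was also 0.018 with an offset of 0, 0.17 with the mean of the probes, and 0.072 or 0.097 without probe 2 or 3. The heterospecific difference from 15 min to 2 h was 0.0023 with the slope as a covariate and 0.016 without probe 2, and that from 2 h to 6 h was 0.012 or 0.024 without probe 3 or 4. Heterospecific 6 h against virgin was -0.054 with the day as a block and -0.017 without the 4 dim arrays. The latter is the same value as without virgin replicate 2, the only dim array of these 2 groups. Without any 1 array, the ranges were -0.50 to 0.19 for heterospecific 6 h against 15 min, -0.36 to 0.21 for 2 h against 15 min, -0.43 to 0.27 for 6 h against 2 h, -0.017 to 0.70 for heterospecific 6 h against virgin and -0.38 to 0.33 for conspecific 2 h against virgin. The cause of these turns was not tested. Over the alternatives, limma called between 2 and 799 transcripts for heterospecific 6 h against 15 min, 0 and 337 for 2 h against 15 min, 0 and 9 for 6 h against 2 h, 1 and 33, 1 and 326, and 1 and 389 for heterospecific 15 min, 2 h and 6 h against virgin, 1 and 7 for conspecific 2 h against virgin, 0 and 9 between mating types at 2 h, and 0 and 110 for conspecific 6 h against 15 min. The replicate block left the heterospecific difference from 15 min to 6 h at -0.15 (limma adjusted p = 0.909). The replicate numbers did not pair the samples: deviations of same-numbered arrays had r between -0.63 and 0.51 over 21 pairs of groups. In a fit without the conspecific 15 min and 6 h groups, the heterospecific difference from 15 min to 6 h had a limma adjusted p of 0.895.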
